A study of Homo sapiens with 8 samples.

Results

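The gene set described here comprised 7 genes that act in protein folding, quality control and export at the endoplasmic reticulum (ER): HYOU1, DNAJB11, PDIA6, CANX, MANF, SEL1L and SEC24D. They were picked by symbol, with earlier results of these data known, and all 7 were found, each with 1 entry, among the 14944 loci of the deposited expression table. The cells were MCF10A, a human breast epithelial line that is immortal but does not form tumours. Total RNA was profiled in 4 groups of 2 libraries. The first received the solvent DMSO, the second 250 nM AZD6738 (an inhibitor of the DNA damage kinase ATR), the third the solvent and ionizing radiation of 20 Gy (IR), and the fourth the inhibitor and the same radiation (AZD6738+IR). Solvent or inhibitor was present from 2 hours ahead of radiation until 3 days of treatment were over, so cells outside the AZD6738 groups were also exposed to the solvent. All groups are 1 cell line at 1 time. Nothing in the labels ties a library to a culture of its own, and the p-values below therefore reflect library-to-library spread that could be technical.

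Proteins that enter the ER are kept soluble by chaperones of the HSP70 type, receive disulfide bonds from isomerases, and, when they carry glycans, are held by lectins until folded. Correctly folded cargo leaves in vesicles coated by the COPII complex, whereas terminally misfolded cargo is pushed back to the cytosol for degradation. When unfolded proteins build up, sensors in the ER membrane switch on the unfolded protein response, which raises transcription of many of these genes through promoter elements made of a CCAAT box and a CCACG box. In secretory epithelia this machinery carries the load of matrix and membrane proteins.

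The promoters of the set are shown first. Pairs of these boxes were found in 3 of the 6 genes with a window, HYOU1, PDIA6 and CANX. Whether they bear on the RNA levels compared below was not tested. Stretches ahead of the annotated start sites are printed 5′ to 3′ on the gene's strand, from RefSeq on GRCh38.p14, with capitals marking a CCAAT box and a CCACG box in the set orientation and spacing, on either strand. The HYOU1 stretch is chr11:119057206-119057455, minus strand. The PDIA6 stretch is chr2:10812845-10813035, minus strand, the part of its window that lies in no annotated exon. For CANX, where annotated start sites are staggered, only 30 bases around the match are shown, chr5:179698773-179698802, plus strand.
HYOU1: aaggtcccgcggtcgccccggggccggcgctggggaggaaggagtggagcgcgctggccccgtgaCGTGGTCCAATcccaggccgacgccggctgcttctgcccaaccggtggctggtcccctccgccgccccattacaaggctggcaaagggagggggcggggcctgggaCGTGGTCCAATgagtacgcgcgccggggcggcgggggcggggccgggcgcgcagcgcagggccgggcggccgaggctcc
PDIA6: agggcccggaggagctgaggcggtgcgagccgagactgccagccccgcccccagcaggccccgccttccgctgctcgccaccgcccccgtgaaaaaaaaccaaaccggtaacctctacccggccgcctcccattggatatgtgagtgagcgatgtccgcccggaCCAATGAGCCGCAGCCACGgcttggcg
CANX: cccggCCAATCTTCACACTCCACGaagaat
The PDIA6 and CANX stretches carry CCAAT, 9 other bases and CCACG, the arrangement known as the ER stress response element. HYOU1 carries 2 copies of the shorter arrangement, ATTGG, 1 other base and CCACG, which read on the strand opposite to the gene. These copies lie at positions -185 to -175 and -79 to -69, counted from the start site as 0. In windows of 300 bases (250 before a start site and 50 after), the arrangement with 9 bases between was found in 27 of 35116 windows of all genes (0.0769%). The shorter one was found in 19 of these windows (0.0541%). Counted by gene with any matching window, the shares were 25 of 27305 genes (0.0916%) and 19 of 27305 (0.0696%). RefSeq windows were matched for 6 of the 7 genes, 10 windows in all, and SEC24D had no entry. Neither arrangement occurred in the windows of MANF, SEL1L or DNAJB11, which held 3, 5 and 3 single CCAAT boxes. CANX had the arrangement in 3 of its 4 windows, which overlap, and PDIA6 in 1 of 2. Of the other secretory pathway genes listed below, 94 had a window and 8 of these (8.51%) held 1 of the arrangements, namely CALR, CRELD2, ERO1B, HSP90B1, HSPA5 and XBP1 with 9 bases between, and HERPUD1 and SDF2L1 with 1. A match is a description of the letters, not evidence that a factor binds there.

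**Figure D1:**
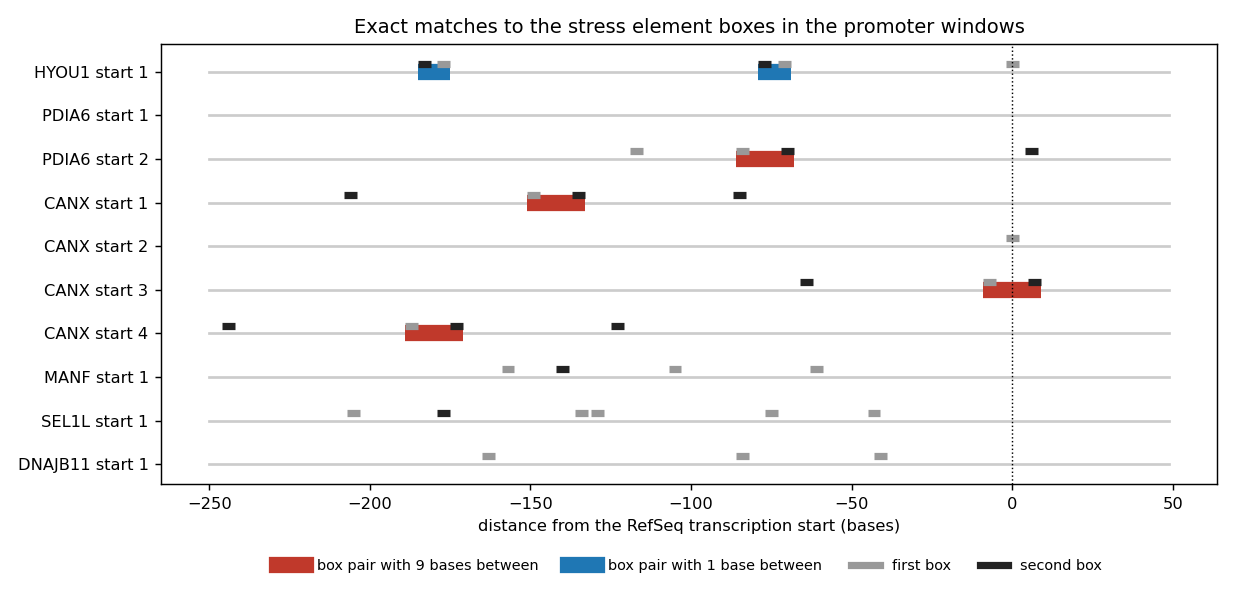
Distance from the annotated start site (bases, x axis) of single CCAAT and CCACG boxes and of their pairs in each promoter window of 6 genes (rows, 1 per window). HYOU1 shows 2 pairs with 1 base between, PDIA6 and CANX show pairs with 9 bases between, and the windows of MANF, SEL1L and DNAJB11 hold single boxes without a pair.

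The genes lie on 6 chromosomes (GRCh38): HYOU1 at chr11:119044188-119057205 on the minus strand, PDIA6 at chr2:10783391-10837712 minus, CANX at chr5:179678656-179731641 plus, MANF at chr3:51385291-51389397 plus, SEL1L at chr14:81471547-81533853 minus, DNAJB11 at chr3:186570720-186585793 plus and SEC24D at chr4:118722823-118836126 minus. Genes on the opposite strand overlap HYOU1 (the antisense gene AP003392.3), PDIA6 (ATP6V1C2), CANX (CBY3) and DNAJB11 (TBCCD1 and AC068631.1) in GENCODE 29. The library kit keeps strand, but whether strand was used in counting is unstated in the sources at hand, so reads of these partners cannot be told apart from those of the 4 genes. On the same strand, AC068631.2 overlaps DNAJB11, the pseudogene HMGB3P22 overlaps CANX and RNU7-176P overlaps PDIA6, and strand would not separate these. MANF, SEL1L and SEC24D have no overlapping gene in that annotation.

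Values are read as FPKM, which divides fragments by transcript length and library size, summing to between 864305.7 and 969381.1 per library, and their read depth is unknown. The 4 most abundant loci took 53.27% to 54.12% of this sum in the 4 unirradiated libraries, 56.48% to 56.78% in 3 irradiated ones and 61.42% in AZD6738+IR B. Of the 7 markers of basal breast epithelium, 5 were listed, while KRT5 was not analysed here. Their summed level of 1742 to 4139 FPKM was highest in AZD6738+IR and was carried by KRT17 (1137 to 3360) and KRT14 (354 to 649). TP63, ITGA6 and EGFR were lower there, at 5.27 and 4.69, 107 and 116, and 17.7 and 16.3 FPKM, against 12.2 and 11.7, 134 and 140, and 21.0 and 18.9 with DMSO. The 3 listed of 4 markers of epithelium in general summed to 110 to 460 FPKM, with KRT8 at 44.0 and 45.5 with DMSO and 336 and 310 with AZD6738+IR, and EPCAM at 26.3 and 26.9 against 19.1 and 18.2. Of 11 markers of fibroblasts, leukocytes and endothelium, CD68 alone was listed, at 7.41 to 8.49 FPKM in 6 libraries and 12.1 and 10.6 in AZD6738+IR. The part of these shifts in the results below was not tested. Levels are given per library as A and B, in the order of the column letters, which are not tied to the replicate numbers of the labels. Since these are bulk libraries, a smaller share of cells that express a gene and less of its RNA per cell cannot be told apart.

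After radiation alone, 5 of the 7 ER genes were lower than in solvent controls, against 38% of all tested loci. CANX, SEL1L, DNAJB11, MANF and SEC24D fell, with changes of the mean between -15.7% (MANF) and -48.0% (SEC24D), and the means of HYOU1 and PDIA6 differed by -11.6% and -9.06% without passing the test. With the ATR inhibitor present during radiation, CANX was lower still, and MANF and SEC24D were higher than after radiation alone. DNAJB11 and SEL1L were below solvent in both irradiated groups. Each comparison was tested with limma on log2(FPKM + 1), which understates the change of low genes, and a call means an adjusted p under 0.05 (Benjamini-Hochberg, over 12809 tested loci). All 7 genes passed the filter on low values.

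**Figure D2:**
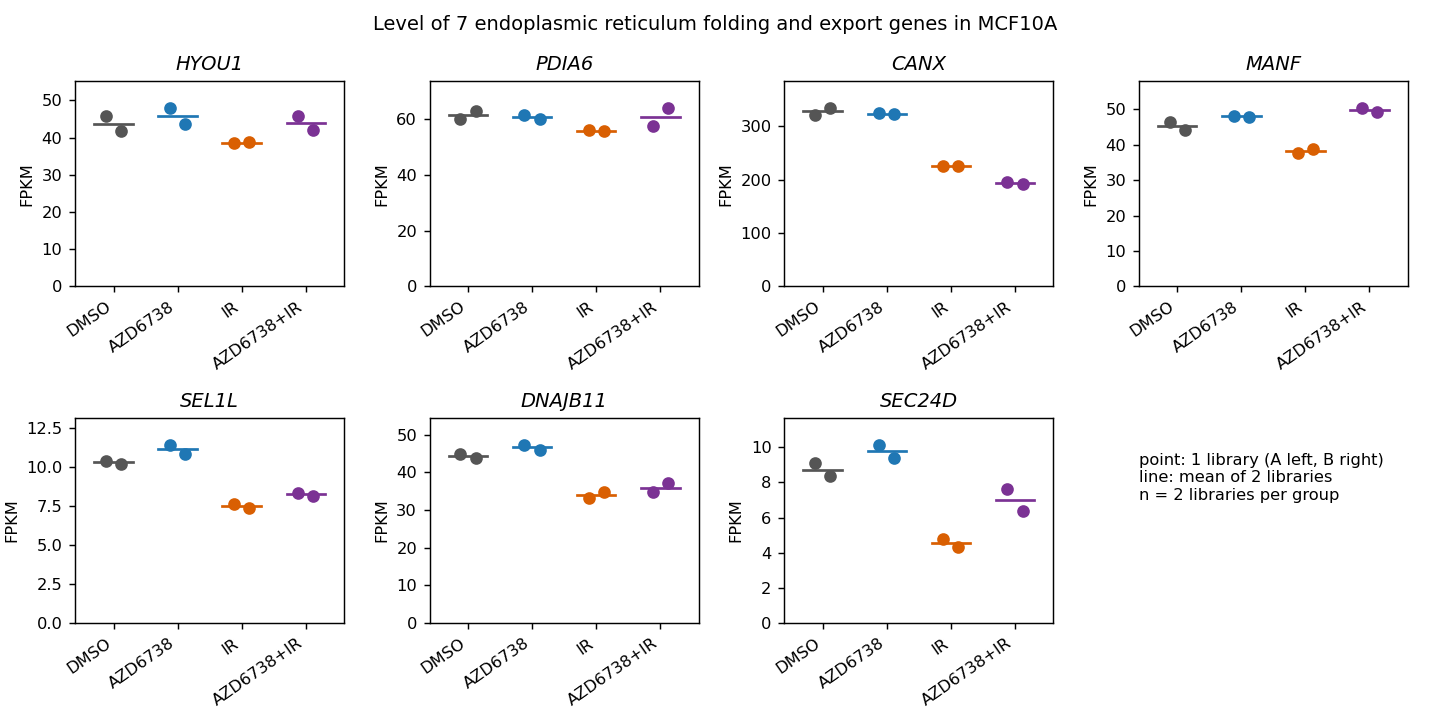
FPKM (y axis, from 0, scaled for each gene) of the 7 genes in the 4 groups, with a point for each library and a line at the mean of 2 libraries. CANX falls from 328 in DMSO to 226 with IR and 194 with AZD6738+IR, whereas MANF falls from 45.3 to 38.2 and stands at 49.9 with both treatments.

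Among the HSP70-type chaperones and their partners, HYOU1 (GRP170, a large HSP70-like protein that exchanges nucleotide on the chaperone BiP) was measured at 45.8 and 41.7 FPKM in the DMSO libraries, 48.0 and 43.6 with AZD6738, 38.5 and 38.8 with IR, and 45.8 and 42.2 with AZD6738+IR. Both IR libraries were below every other library, and the remaining 3 groups overlapped. The difference between IR and DMSO was -0.17 on the log2(FPKM + 1) scale (95% interval -0.35 to 0.00, adjusted p = 0.0800 in limma). Adding the inhibitor to radiation gave a difference of 0.18 (interval 0.01 to 0.36, adjusted p = 0.0803). This difference passed under the 3 other scalings of the libraries (adjusted p = 0.0303 to 0.0466) and in the fit that blocks on column letter (0.0318). The combination differed from solvent by 0.01 (interval -0.17 to 0.18, adjusted p = 0.924).

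DNAJB11 (ERdj3, a J-domain protein that delivers clients to BiP) was at 44.8 and 43.8 FPKM with DMSO, 47.4 and 46.1 with AZD6738, 33.3 and 34.9 with IR, and 34.7 and 37.2 with AZD6738+IR. All 4 irradiated libraries were below all 4 unirradiated ones, and the 2 irradiated groups overlapped. It fell by 0.37 on the log2 scale with IR (SE 0.047, adjusted p = 0.000988 in limma) and by 0.37 with AZD6738+IR relative to AZD6738 (SE 0.047, adjusted p = 0.000646). The effect of radiation did not differ detectably with the inhibitor (interaction -0.00, interval -0.17 to 0.16, adjusted p = 0.972). Its decline with AZD6738+IR relative to DMSO was 0.29 (adjusted p = 0.00174), a call lost under quantile normalization (adjusted p = 0.1005).

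PDIA6 (P5), a disulfide isomerase that also binds BiP, stood at 60.0 and 63.0 FPKM with DMSO, 61.7 and 60.0 with AZD6738, 56.2 and 55.7 with IR, and 57.6 and 64.2 with AZD6738+IR. As for HYOU1, both IR libraries were the lowest of the 8, and the 2 AZD6738+IR libraries spanned most of the range. No comparison of PDIA6 passed the threshold: IR differed from DMSO by -0.13 (interval -0.28 to 0.01, adjusted p = 0.0903 in limma) and AZD6738+IR from IR by 0.12 (interval -0.02 to 0.26, adjusted p = 0.140). Without AZD6738+IR A, the second difference was 0.19 and the interaction 0.21, and both passed. The first difference, unaltered at -0.13, passed with either AZD6738+IR library left out. It also passed when only the IR and DMSO groups were fitted (adjusted p = 0.0416 in limma).

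CANX (calnexin, the membrane lectin that retains glycoproteins until they are folded) was the most abundant of the set per transcript length. Its levels were 321 and 334 FPKM with DMSO, 324 and 323 with AZD6738, 226.2 and 226.2 with IR, and 194.5 and 192.6 with AZD6738+IR. The unirradiated groups overlapped, whereas the IR libraries lay below them and the AZD6738+IR libraries lower again. On the log2 scale CANX fell by 0.53 with IR relative to DMSO (SE 0.033, adjusted p = 6.84e-05 in limma) and by a further 0.22 when AZD6738 was added to IR (SE 0.033, adjusted p = 0.00242). The mean with both treatments was 59.1% of solvent, against 69.0% with IR alone. CANX was the only gene of the 7 that passed the test downward for the addition of AZD6738 to IR. Its interaction was -0.21 (SE 0.046, adjusted p = 0.0189), a call that was lost without DMSO A, either AZD6738 library or either IR library (adjusted p = 0.0534 to 0.0728).

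MANF, a small ER-resident and secreted protein that binds BiP and is known as a protective factor for neurons and for secretory cells, was at 46.3 and 44.3 FPKM with DMSO, 48.1 and 47.9 with AZD6738, 37.6 and 38.8 with IR, and 50.4 and 49.4 with AZD6738+IR. No groups overlapped: the IR libraries were lowest and the AZD6738+IR libraries highest. MANF fell by 0.24 on the log2 scale with IR (SE 0.038, adjusted p = 0.00236 in limma), was 0.38 higher with AZD6738+IR than with IR (adjusted p = 0.000602), and had an interaction of 0.29 (SE 0.053, adjusted p = 0.00906). These 3 calls passed in all alternative settings tried. The rise of 0.14 over DMSO with both treatments (adjusted p = 0.0179) did not: adjusted p was 0.0881 without DMSO B and 0.0555 without AZD6738+IR A.

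SEL1L, the adaptor that stabilises the ubiquitin ligase HRD1 (gene SYVN1) and feeds it misfolded clients, was at 10.4 and 10.2 FPKM with DMSO, 11.4 and 10.8 with AZD6738, 7.62 and 7.35 with IR, and 8.32 and 8.17 with AZD6738+IR. The 4 groups did not overlap, in the rising order IR, AZD6738+IR, DMSO and AZD6738. SEL1L fell by 0.41 on the log2 scale with IR relative to DMSO (SE 0.041, adjusted p = 0.000364 in limma) and by 0.39 with AZD6738+IR relative to AZD6738 (SE 0.041, adjusted p = 0.000274). Between the 2 irradiated groups the difference of 0.12 passed narrowly (adjusted p = 0.0475) and was lost in 11 of 19 alternative settings, among them the omission of any 1 of the 8 libraries (adjusted p = 0.0587 to 0.202). The 2 radiation effects differed by 0.02 (interval -0.12 to 0.16, adjusted p = 0.810).

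SEC24D, a cargo-binding subunit of the COPII coat, had the largest relative fall of the set after radiation alone. It was at 9.09 and 8.37 FPKM with DMSO, 10.2 and 9.37 with AZD6738, 4.78 and 4.30 with IR, and 7.65 and 6.38 with AZD6738+IR. The libraries of IR lay lowest and those of AZD6738+IR next, without overlap between any groups. Relative to DMSO it fell by 0.81 on the log2 scale with IR (SE 0.094, adjusted p = 0.000672 in limma), to 52.0% of the solvent mean. It was 1.54-fold higher with AZD6738+IR than with IR (log2 difference 0.53, SE 0.094, adjusted p = 0.00521), at 80.4% of solvent. That remaining fall of 0.28 relative to DMSO (adjusted p = 0.0351) was lost in 7 of 19 alternative settings, including without DMSO A (0.150), DMSO B (0.0574) or AZD6738+IR B (0.141). The interaction of 0.38 (interval 0.06 to 0.71) missed the threshold (adjusted p = 0.0722), and it passed without AZD6738+IR B at 0.50 (adjusted p = 0.0269).

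In numbers, 5 of the 7 genes fell and 0 rose with IR relative to DMSO, where 61.8% of all tested loci were called, 38% lower and 23.7% higher. The median log2 difference was -0.37 over the 7 genes and -0.10 over all loci. With AZD6738+IR relative to DMSO, 4 fell and 1 (MANF) rose, against 45.6% and 27.1% of all loci (72.7% in either direction). Radiation in the presence of the inhibitor, AZD6738+IR relative to AZD6738, lowered 4 (CANX by 0.74, SEL1L by 0.39, DNAJB11 by 0.37 and SEC24D by 0.43 on the log2 scale) and raised 0, where 72.4% of all loci were called, 45.2% lower and 27.1% higher. Adding AZD6738 to IR raised 3 (MANF, SEL1L and SEC24D) and lowered 1 (CANX), against 19.6% and 31.5% of all loci (51.1% in either direction), with medians of 0.12 for the 7 genes and -0.07 for all loci. The interaction passed for 1 gene upward and 1 downward, where 13.1% and 22.4% of all loci passed (35.5% in either direction). These comparisons share libraries, so their values are set side by side and are not independent of one another.

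AZD6738 without radiation gave 0 calls among the 7 genes by limma, against 0.148% of all loci (19 of 12809), 0.0937% higher and 0.0546% lower. Their log2 differences from DMSO lay between -0.02 (CANX) and 0.15 (SEC24D, interval -0.09 to 0.38). At an unadjusted p under 0.05 the count was 1, SEL1L, with a difference of 0.10 (adjusted p = 0.358 in limma), where 13.7% of all loci passed that threshold. Both AZD6738 libraries were above both DMSO libraries for MANF, SEL1L, DNAJB11 and SEC24D, and the groups overlapped for HYOU1, PDIA6 and CANX. The share of all loci that separate in this way was not counted, so this is a description and not a sign of an inhibitor effect.

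**Figure D3:**
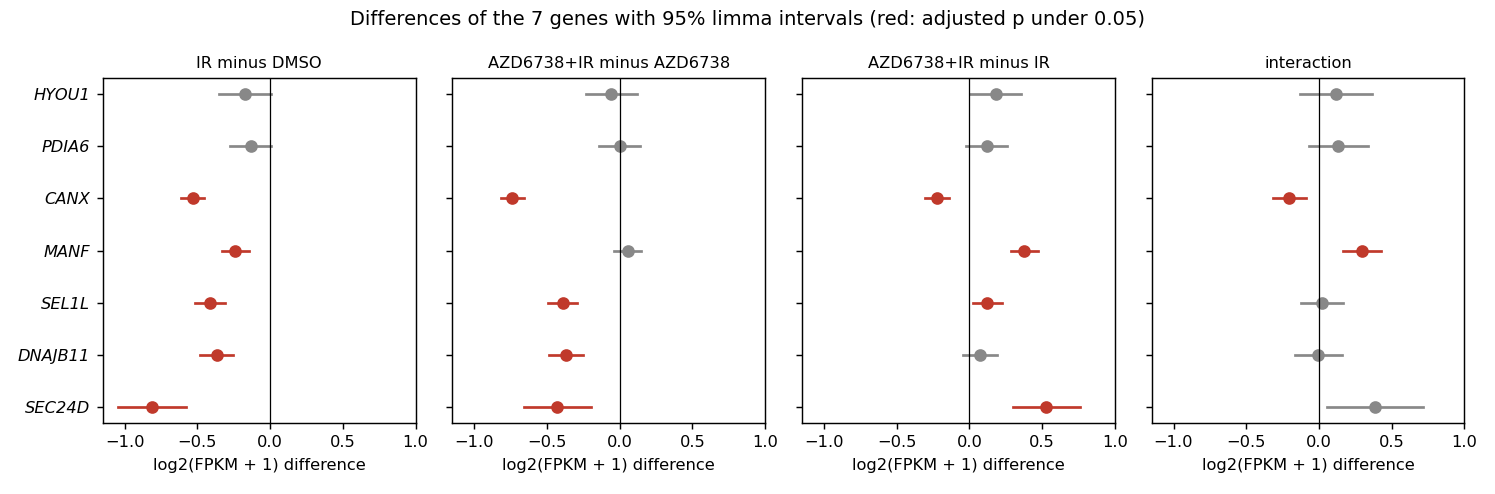
Differences on the log2(FPKM + 1) scale (x axis) of the 7 genes (rows) for 4 comparisons, with limma's 95% interval as a line and red for an adjusted p under 0.05. With IR minus DMSO, all points lie below 0, whereas with AZD6738+IR minus IR, CANX at -0.22 is alone below 0.

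The profiles over the 3 treatments, each taken as the log2 difference from DMSO, were closest between SEL1L and DNAJB11 (root mean square distance 0.03) and between HYOU1 and PDIA6 (0.05), and farthest between CANX and MANF (0.55). Among 4976 other named genes with a mean of at least 5 FPKM, the profiles nearest to CANX included those of C16orf13 and MMGT1, at distances of 0.01. ROCK2, CHD2 and KHNYN were nearest to MANF (0.02 to 0.03), RB1CC1, CAV2 and NRDC to SEL1L (0.01 to 0.02), and GABRR2, MEAF6 and NRDC to DNAJB11 (0.01 to 0.02). The nearest to HYOU1 were PPP4R3A, PPL and TANK (0.01 to 0.03), to PDIA6 ZBTB7B, NIPBL and FNBP1L (0.02 to 0.03), and to SEC24D HIST1H2AC, CCDC25 and FLRT3 (0.03 to 0.08). This likeness rests on 3 differences from 8 libraries and is a description.

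The 7 genes were then set beside other genes of their pathway, in 7 lists by role. Of all tested loci, 23.7% rose and 38% fell with IR, and adding AZD6738 to IR raised 19.6% and lowered 31.5%. Among ER chaperones and J proteins, 15 of 18 listed genes were tested. With IR, 1 rose and 6 fell, with a median of -0.02 on the log2 scale, and adding AZD6738 to IR raised 6 and lowered 3 (median 0.06). CALR (calreticulin, the soluble relative of calnexin) was at 211 ± 2.2 FPKM with DMSO (SD, n = 2), 338 ± 1.5 with IR and 407 ± 20 with AZD6738+IR, a rise of 0.67 with IR (adjusted p = 6.64e-05 in limma). HSP90B1 (GRP94) was at 228 with DMSO, 178 with IR and 217 with both, so that it fell by 0.35 (adjusted p = 0.00025) and was 0.28 higher with the inhibitor (adjusted p = 0.000876). HSPA5 (BiP) had an interaction of 0.01 (adjusted p = 0.955 in limma). Relative to DMSO, it was not called with IR (0.07, adjusted p = 0.385) or with AZD6738 alone (0.28, adjusted p = 0.213). With AZD6738+IR it was 0.36 above DMSO (adjusted p = 0.00410 in limma), a call that passed in all 19 alternative settings. It was 0.29 higher with AZD6738+IR than with IR (adjusted p = 0.0170), a call lost without IR A (0.0525), IR B (0.0859) or AZD6738+IR B (0.0636). HSPA13, an HSP70-type ATPase of microsomes, had the largest called fall of the list with IR (0.96). When AZD6738 was added, the J protein DNAJC1 had the largest called rise (0.45) and DNAJC25 the largest called fall (0.35).

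Of the disulfide isomerases and oxidases, 15 of 20 were tested, and with IR 4 rose and 5 fell (median -0.04), as with the addition of AZD6738 to IR (4 and 5, median -0.02). The membrane oxidoreductase TMX4 fell by 1.13 on the log2 scale with IR, from 19.4 to 8.29 FPKM (adjusted p = 3.08e-05 in limma). QSOX1, a sulfhydryl oxidase, had the largest rise at 0.29 (adjusted p = 0.0369), which was lost without DMSO B, either AZD6738 library or either IR library (adjusted p = 0.0615 to 0.164). With the inhibitor added to IR, TMX1 rose from 11.1 to 16.9 FPKM (0.57, adjusted p = 0.000493) and the peroxiredoxin PRDX4 fell from 91.6 to 62.0 (by 0.56, adjusted p = 0.000207).

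In glycoprotein quality control, the group to which CANX belongs by function, 13 of 16 were tested. With IR 2 rose and 4 fell (median -0.01), and adding AZD6738 to IR raised 0 and lowered 8 (median -0.15), as it lowered CANX. Subunits of the oligosaccharyltransferase differed in direction: catalytic STT3A fell from 59.8 to 37.1 FPKM with IR (by 0.67) and to 27.1 with both, and RPN2 rose from 118 to 178 (0.59) and stood at 166 with both. EDEM1, which marks misfolded glycoproteins for disposal, had the same mean with DMSO and IR (13.1) and fell to 9.31 with the inhibitor added (by 0.45, adjusted p = 0.000679 in limma). For ER-associated degradation, the list around SEL1L, 16 of 24 were tested. IR raised 5 and lowered 4 (median -0.02), led by NPLOC4 (0.55), a cofactor of the extraction ATPase VCP, and RNF139 (fell by 0.61), an ER ubiquitin ligase. SYVN1, the ligase that SEL1L holds, was at 2.73 FPKM with DMSO and 3.42 with IR (0.25, adjusted p = 0.0444), and its call was lost when any 1 of the DMSO, AZD6738 or IR libraries was left out (adjusted p = 0.0722 to 0.149). With AZD6738+IR, SYVN1 was at 3.93 FPKM, 0.40 above DMSO (adjusted p = 0.00583 in limma). That call passed in all 18 alternative settings that tested the gene. Adding AZD6738 to IR raised 3 of the degradation list and lowered 5 (median 0.03). HERPUD1, a scaffold of the HRD1 complex, fell by 0.57 with IR and was 0.54 higher with the inhibitor added (adjusted p = 0.00578). UBE2G2, a ubiquitin-conjugating enzyme, fell by 0.89 there, a call lost without IR A (adjusted p = 0.0554).

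In the COPII coat and cargo export list, the surroundings of SEC24D, 24 of 28 were tested. With IR 6 rose and 7 fell (median -0.01), and with AZD6738 added to IR 3 rose and 7 fell (median -0.08). Of the paralogs of SEC24D, SEC24A was at 5.59 ± 0.19 FPKM with DMSO and 6.67 ± 0.16 with IR, a rise of 0.22 (adjusted p = 0.00936 in limma) that was lost without DMSO B (0.0501) or IR A (0.0555). With AZD6738+IR, SEC24A was at 7.10 FPKM, 0.30 above DMSO (adjusted p = 0.00196 in limma), a call that passed in all 19 alternative settings. SEC24B and SEC24C were not called in that comparison (adjusted p = 0.837 and 0.208). SEC24B (13.4 and 12.2) and SEC24C (29.1 and 27.7) were not called with IR (adjusted p = 0.0791 and 0.411), and none of the 3 was called between AZD6738+IR and IR. LMAN1, the cargo receptor for coagulation factors, had the largest fall with IR, from 46.4 to 25.4 FPKM (-0.85 on the log2 scale), while the small GTPase SAR1A that starts coat assembly had the largest rise, from 29.9 to 45.3, and rose again to 53.2 with both. ERGIC1 had the largest called fall when AZD6738 was added (by 0.51). MCFD2, the partner of LMAN1, was the 1 gene of all the lists called with AZD6738 alone. It was at 34.5 ± 0.79 FPKM with DMSO, 7.62 ± 0.62 with AZD6738, 31.7 ± 0.26 with IR and 29.8 ± 0.78 with both (log2 difference of AZD6738 from DMSO -2.05, adjusted p = 0.000282).

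Of the genes for translocation into the ER, 13 of 18 were tested. With IR 2 rose and 7 fell (median -0.15), and with AZD6738 added to IR 1 rose and 9 fell (median -0.26). Subunits of the translocon-associated complex differed, with SSR2 falling from 225 to 140 FPKM with IR (by 0.69) and SSR4 rising from 66.9 to 94.6 (0.49). SSR3 was lower by 1.74 with AZD6738+IR than with IR (adjusted p = 0.0338 in limma), but its DMSO mean of 29.3 had an SD of 22.5, and that call was lost when any 1 of the AZD6738, IR or AZD6738+IR libraries was left out (adjusted p = 0.0519 to 0.113). TRAM1 rose by 0.29 there (adjusted p = 0.0369), which was lost without any 1 IR or AZD6738+IR library (0.0517 to 0.146).

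Among sensors and regulators of the unfolded protein response, 12 of 18 were tested, and ATF6 was not analysed here. With IR 1 rose and 7 fell (median -0.33), and with AZD6738 added to IR 4 rose and 4 fell (median 0.03). XBP1, the transcription factor of the IRE1 branch, fell by 0.58 with IR, from 60.4 to 40.1 FPKM (adjusted p = 0.00281 in limma). It was 0.39 higher with the inhibitor added (adjusted p = 0.0169), a call lost without IR B (0.0892) or AZD6738+IR A (0.0723). ATF4, of the PERK branch, fell from 391.9 to 166 FPKM with IR and to 139 with both, and TRIB3, a pseudokinase induced by ATF4 and DDIT3, had the largest falls, from 132 to 28.4 and 16.9. DDIT3 (CHOP) fell by 1.72 with IR, from 8.50 to 2.05 FPKM. PPP1R15A (GADD34, which restores translation) was at 15.0, 14.5 and 40.03 FPKM with DMSO, IR and both, and rose by 1.40 when AZD6738 was added to IR (adjusted p = 5.49e-05). CREB3 had the only called rise with IR (0.38, adjusted p = 0.0256 in limma). That call was lost without IR A (difference 0.37) or IR B (0.39).

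**Figure D4:**
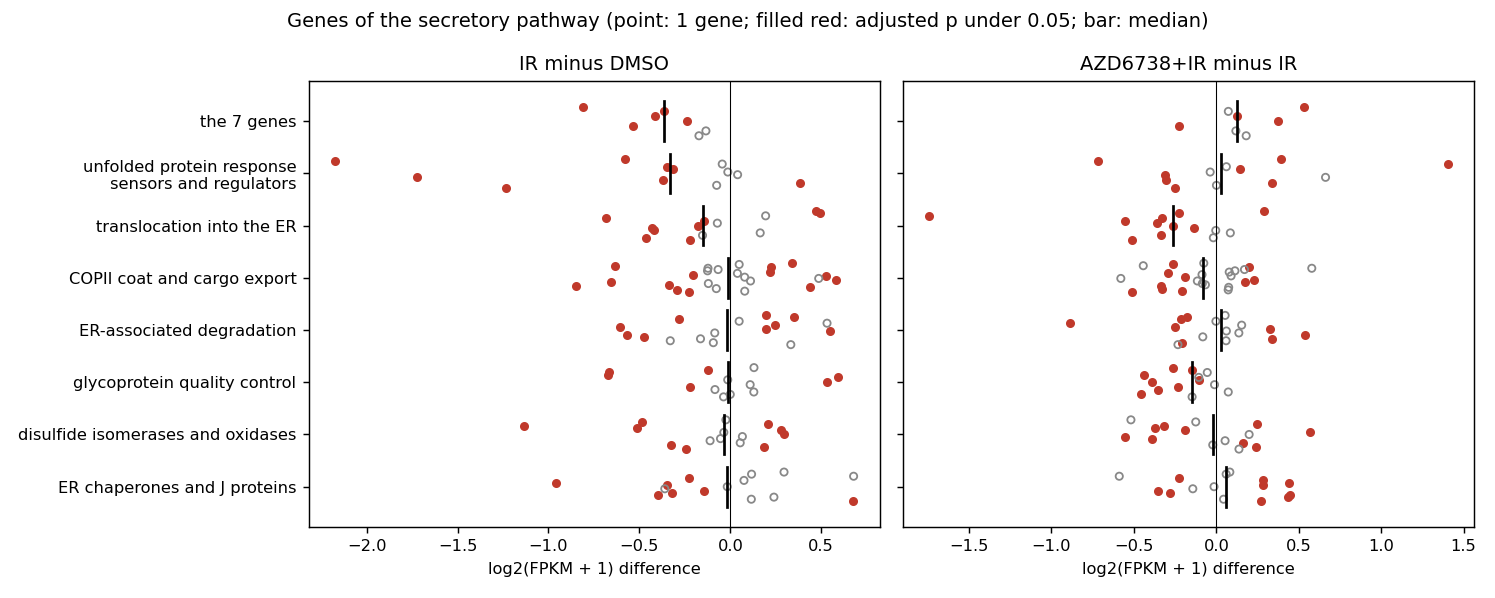
Differences on the log2(FPKM + 1) scale (x axis) for IR minus DMSO and AZD6738+IR minus IR, with a point for each tested gene of the 7 lists and of the 7 genes described here (rows), filled where the adjusted p was under 0.05, and a bar at the median. The 7 genes have a median of -0.37 in the first comparison and 0.12 in the second, where glycoprotein quality control (-0.15) and translocation into the ER (-0.26) lie below 0.

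For AZD6738+IR relative to DMSO, the numbers of list genes that rose and fell were 5 and 4 for chaperones, 5 and 6 for isomerases, 3 and 7 for glycoprotein quality control, 5 and 4 for degradation, 6 and 11 for COPII and export, 3 and 10 for translocation, and 2 and 7 for regulators. The genes tested in these lists numbered 15, 15, 13, 16, 24, 13 and 12, and of all loci 27.1% rose and 45.6% fell. CALR had the largest rise of the chaperones (0.94) and DNAJC10, a J protein with reductase activity, the largest fall (0.60). TMX1 (0.53) and PPP1R15A (1.36) had the largest rises of their lists. Relative to AZD6738 the same lists gave 5 and 5, 5 and 7, 3 and 8, 4 and 6, 8 and 10, 2 and 9, and 2 and 8, against 27.1% and 45.2% of all loci. SDF2 had the largest rise among the chaperones there (1.34, adjusted p = 0.0270), lost without either AZD6738 library (0.0903 and 0.0828), and its AZD6738+IR mean of 13.2 FPKM had an SD of 8.9. The interaction passed upward and downward for 3 and 3, 1 and 4, 0 and 7, 1 and 2, 1 and 7, 0 and 6, and 1 and 4 genes, against 13.1% and 22.4% of all loci. HSP90B1 passed upward (0.25, adjusted p = 0.00788 in limma), as did MANF. CALR also passed upward (0.26, adjusted p = 0.0184), a call lost in 5 of 18 alternative settings. EDEM1 (-0.57), PRDX4 (-0.57), SRPRB of the signal recognition particle receptor (-0.57) and TRIB3 (-0.99) passed downward, as did CANX. ATF4 passed downward too, with its call lost in 8 of 18 settings. OS9, a lectin that works with SEL1L, passed upward (0.31, adjusted p = 0.00645), at 43.7, 44.3, 50.2 and 63.3 FPKM in DMSO, AZD6738, IR and AZD6738+IR. Within their own lists, MCFD2 (1.96), PPP1R15A (1.20) and TMX1 (0.56) had the largest upward and DNAJC10 (-0.49) and UBE2G2 (-1.33) the largest downward interactions that passed. DNAJC1 (0.32) lost its call without DMSO A, DMSO B, AZD6738 B, IR A or AZD6738+IR A (adjusted p = 0.0502 to 0.0747), and SAR1B (-0.94) lost its call without DMSO B, AZD6738+IR B, or either AZD6738 or IR library (0.0676 to 0.118).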

How the data were processed

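Total RNA of MCF10A cells was depleted of ribosomal RNA, made into stranded libraries and read from both ends, per the labels' protocols. FastQC, HISAT2 2.0.4, StringTie 1.3.4d and the build hg38 are named per the submitters' processing notes, but no settings are stated. The submitters' table is filtered by an unstated rule and names no unit. The values the authors deposited were read as FPKM, which StringTie computes by dividing fragments by transcript length and library size, and TPM would look alike. FPKM carries no depth, and a change in a few abundant loci moves the rest. The p-values the authors deposited beside them name no comparison and were not used.

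Columns were matched to groups by name. There were 0 value columns of no sample, and no pair of libraries held identical values. For the 217 symbols with several entries the entry of highest mean was kept, so 299 were left out and 14645 loci kept. The entry of each of the 7 genes also names 1 RefSeq transcript, and whether its value covers other transcripts of the gene was not tested. limma 3.58.1 in R 4.3.3 was fitted to log2(FPKM + 1) of all 8 libraries with 1 coefficient per group and an intensity trend, over the 12809 loci whose mean reached 1 FPKM, giving 4 residual and 1.79 prior degrees of freedom. It was tested on simulated data. There were 6 two-sided contrasts, each adjusted by the Benjamini-Hochberg method over all tested loci. The interaction is the radiation difference with the inhibitor less that without it. A fold is a ratio of group means. The 19 alternative settings varied pseudocount, filter, scaling, duplicate entries, variance model, groups fitted and library block, and left out each library.

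The members and lists were chosen with earlier results of these data known. Named besides the members are the called gene of each list with the largest rise and fall per contrast, HSPA5, HSP90B1, CALR, XBP1, ATF6, ATF4, DDIT3, HERPUD1, SYVN1, SEC24A, SEC24B and SEC24C, and the 3 nearest profiles per member, of which 1 is not reported here. The columns' letters were not treated as pairs. Promoters came from RefSeq (GRCh38.p14), and overlapping genes from GENCODE 29.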

Additional observations from a re-analysis of the deposited data

Results flagged for a closer look

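For CANX and MANF the effect of radiation differed between cells with and without the ATR inhibitor, by limma's test of the difference itself. The interaction was -0.21 on the log2(FPKM + 1) scale for CANX (SE 0.046, adjusted p = 0.0189). CANX fell by 0.53 with IR relative to DMSO and by 0.74 with AZD6738+IR relative to AZD6738. For MANF it was 0.29 (SE 0.053, adjusted p = 0.00906). MANF fell by 0.24 with IR relative to DMSO and was 0.05 higher with AZD6738+IR than with AZD6738 (interval -0.04 to 0.15, adjusted p = 0.239). The CANX call was lost without DMSO A, either AZD6738 library or either IR library (adjusted p = 0.0534 to 0.0728), whereas that of MANF passed in all alternative settings tried. Of all tested loci, 35.5% passed this test in either direction.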

How the results depend on the processing

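Every called fall with IR relative to DMSO (CANX, MANF, SEL1L, DNAJB11, SEC24D), and the calls of CANX, MANF and SEC24D for AZD6738+IR relative to IR, passed in all 19 alternative settings. Values near 0 changed sign under median centring, quantile normalization and equal totals without the 4 most abundant loci: PDIA6 was 0.065, 0.14 and 0.088 for AZD6738+IR relative to DMSO and 0.084, 0.15 and 0.10 relative to AZD6738. HYOU1 was 0.028, 0.12 and 0.043 relative to AZD6738, and the DNAJB11 interaction 0.015, 0.059 and 0.052. HSP90B1 relative to AZD6738, which was -0.09 and called, became 0.13 under quantile normalization, a call in the other direction (adjusted p = 0.0481), and 0.0077 with equal totals, and its call was lost or reversed in 12 of 19 settings. With these 3 scalings the SEC24D interaction passed (adjusted p = 0.0436, 0.0436 and 0.0477), HYOU1 passed for AZD6738+IR relative to IR (0.0466, 0.0303 and 0.0322) and MANF for AZD6738+IR relative to AZD6738. The fall of SEC24D relative to DMSO was lost under all 3, and HYOU1 passed there under quantile normalization (0.19, adjusted p = 0.0497). The scalings moved the median of all loci by under 0.1.

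With a mean of at least 5 FPKM required, which tests fewer loci, the calls over all loci were 6, 4686, 5470, 4124 and 5459 for AZD6738 and IR relative to DMSO and AZD6738+IR relative to DMSO, IR and AZD6738. For IR relative to DMSO these split into 1722 higher and 2964 lower. Their share of the loci that this filter keeps was not computed. Calls for AZD6738 alone split into 12 higher and 7 lower, and into 6 and 7 with a pseudocount of 5 and 3 and 3 with that filter. The split turned with 1 library, to 25 and 9 without DMSO B and 11 and 25 without AZD6738 B. Fitting only the groups compared left 3 of the 7 genes called for AZD6738+IR relative to DMSO, and PDIA6 passed for IR relative to DMSO (adjusted p = 0.0416). A lone library left in a group is assumed to vary like the others.

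Leaving out 1 library gave 16 to 41 calls over all loci for AZD6738 alone, 3 to 5 of the 7 genes for AZD6738+IR relative to DMSO, and 1 to 3 for the interaction. Some differences near 0 changed sign. For AZD6738 relative to DMSO they were -0.0033 to 0.13 for HYOU1, -0.049 to 0.019 for PDIA6 and -0.047 to 0.0099 for CANX. For AZD6738+IR relative to DMSO they were -0.058 to 0.075 for HYOU1 and -0.093 to 0.060 for PDIA6, and relative to AZD6738 -0.13 to 0.012 and -0.078 to 0.075. The interaction was -0.015 to 0.057 for SEL1L and -0.052 to 0.045 for DNAJB11. Read depth is unknown, so counting error is not covered.

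The letters were not treated as pairing: the A minus B differences of 2 groups correlated at -0.05 to 0.16 over loci. With the letter as a replicate block, HYOU1 passed for IR relative to DMSO (-0.17, adjusted p = 0.0302) and AZD6738+IR relative to IR (0.18, adjusted p = 0.0318), and the SEC24D interaction passed (0.38, adjusted p = 0.0130). It moved no other call of the 7 genes, and for AZD6738+IR relative to IR the calls of SSR3 (adjusted p = 0.0502) and TRAM1 (0.0594) were lost.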
